A study of Homo sapiens with 8 samples.

Results

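The genes examined here were 10 genes of the Polycomb complexes: JARID2, EZH2, EZH1, EED and SUZ12 of Polycomb repressive complex 2 (PRC2), and PHC1, PHC2, PHC3, BMI1 and RNF2 of Polycomb repressive complex 1 (PRC1). Their probes were those on the array, control spots apart, whose RefSeq identifier belongs to one of these genes. This gave 16 of the 41000 probes, which cover 9 of the 10 genes. No probe carried an identifier matched to EED, which was not analysed here. JARID2 and PHC2 were chosen by their miR-155/EV ratios in these same data, to be set against the other genes, so their values are a description and no test was applied to them.

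The data came from Ago2-RIP-Chip of ST486, a cell line established from Burkitt lymphoma, and the comparison addressed which transcripts are held by Ago2 more strongly once miR-155 is present. The cells were transduced with the retroviral MXW-PGK-IRES-GFP vector, either empty (EV-ST486, below EV cells) or with the miR-155 precursor inserted (miR-155-ST486, below miR-155 cells), and the GFP+ cells were sorted. Both groups thus carried the vector and its GFP, and the comparison rests on sorted cells of 1 line. The lysate gave the total (T) RNA, and the part of it precipitated with an antibody against Ago2 gave the IP RNA. The resulting 4 RNA samples were each labelled with both Cy3 and Cy5. Arrays carried the T and IP RNA of one vector in opposite dyes, in either orientation, which made 4 arrays and 8 channels. Since both labellings use the same RNA, each condition had n = 1. No test between conditions was possible, and the values of the dye orientations are given as the only measure of error. Each slide held arrays of 1 vector only, so slide and vector cannot be told apart. In these bulk samples, fewer cells with a transcript and less of it per cell cannot be told apart either.

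Polycomb proteins keep genes silent through marks on histones. PRC2 methylates histone H3 at lysine K27: EZH2 and EZH1 are the alternative catalytic subunits, SUZ12 holds the complex together, EED reads the mark, and JARID2, a Jumonji protein without demethylase activity, is an accessory subunit that helps bring PRC2 to its genes. PRC1 places ubiquitin on histone H2A: RNF2 is its ligase, BMI1 the partner of the ligase, and PHC1, PHC2 and PHC3 are the polyhomeotic subunits, whose SAM domains polymerize and cluster the complex. EZH2 is highly expressed in germinal centre B cells, the cells from which Burkitt lymphoma arises, and JARID2 is a known miR-155 target. A miRNA guides Ago2 to transcripts that pair with its seed, and a bound transcript is carried into the IP fraction.

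The vector insert is processed to the miRNA whose arms are printed here, since the comparison of EV with miR-155 cells turns on it. The seed, bases 2 to 8, is in capitals, and the sequences are from RefSeq (GRCh38.p14).
hsa-miR-155-5p (chr21:25573983-25574006, plus strand): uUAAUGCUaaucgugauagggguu
hsa-miR-155-3p (chr21:25574022-25574043, plus strand): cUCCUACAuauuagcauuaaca
The arms differ in seed. A site of 8 bases that pairs with the 5p seed and ends in A reads AGCATTAA on the transcript, and the core of 6 bases reads GCATTA. Whether the transcripts of the Polycomb genes hold these letters was not analysed here.

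A probe was called detected in a channel when its signal was well above background, positive and significant, and was kept when it was detected in at least 4 of the 8 channels and when the labellings of each RNA sample lay within 2-fold of each other. Of the 16 Polycomb probes, 12 were detected in at least 4 channels, beside 47.5% of all probes, and 10 were kept, beside 37.9% of all probes. The kept probes belonged to 6 genes, JARID2, EZH2, EZH1, SUZ12, PHC2 and BMI1. A total of 7 probes were detected in all 8 channels and 3 in none. Signals are normalized signals in arbitrary units and are compared within a probe only. Where a gene had several probes, these are numbered from the highest mean signal.

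**Figure D1:**
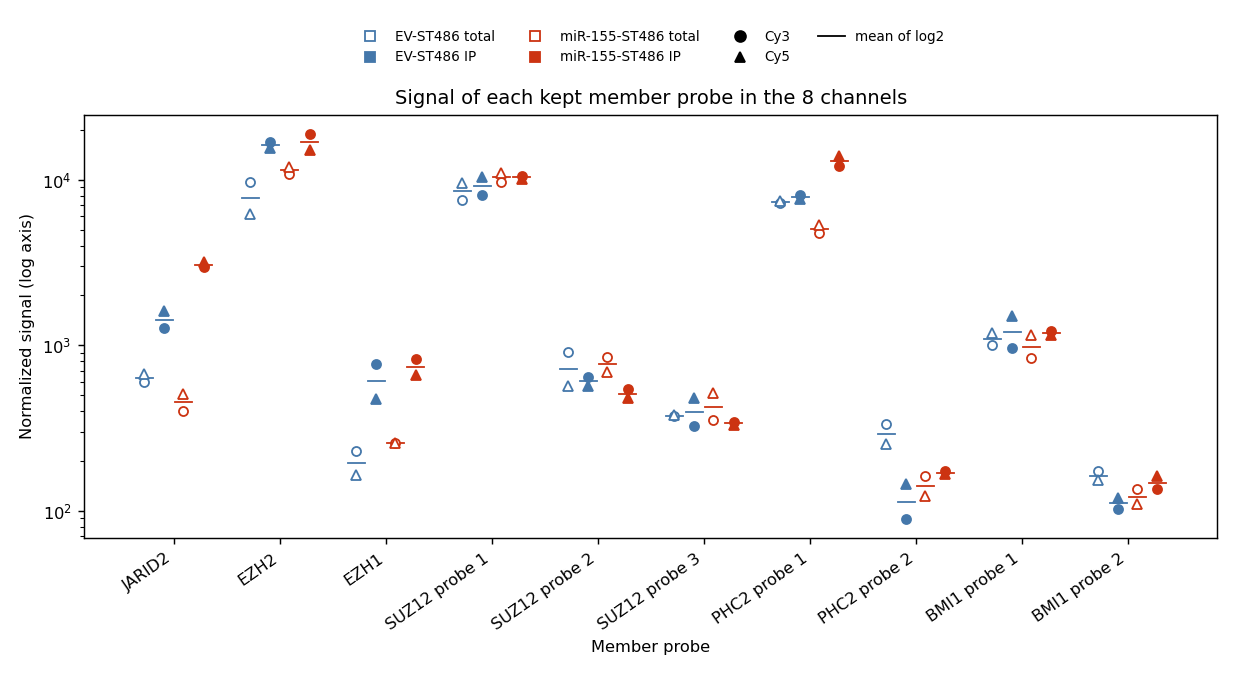
Normalized signal (log axis) of the 10 kept Polycomb probes in the 8 channels. Open symbols are total RNA and filled symbols IP RNA, circles Cy3 and triangles Cy5, blue EV-ST486 and red miR-155-ST486, and lines are means of the log2 labellings. For JARID2 and PHC2 probe 1 the total signals of miR-155 cells lie below those of EV cells while the IP signals lie above them.

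Among the kept probes of JARID2, EZH2, EZH1 and SUZ12, that of JARID2 had the highest miR-155/EV ratio, by which this gene was chosen. Its IP/T ratio, the IP signal divided by the total signal, was 2.24 in EV and 6.78 in miR-155 cells, a miR-155/EV ratio of 3.02. Its single probe (A_23_P214876, NM_004973) was detected in all 8 channels. In EV cells the total signal was 599 in Cy3 and 673 in Cy5 and the IP signal 1270.1 and 1599. In miR-155 cells the total signal was 402 in Cy3 and 508 in Cy5 and the IP signal 2959 and 3166. The 4 RNA samples therefore stood in a clear order, miR-155 total lowest, EV total next, then EV IP and miR-155 IP, and no labelling of one overlapped with a labelling of its neighbour.

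With total RNA in Cy3 and IP RNA in Cy5, the IP/T ratio of JARID2 was 2.67 in EV and 7.88 in miR-155 cells. With the dyes exchanged it was 1.89 and 5.83. The miR-155/EV ratio was 2.95 in the first orientation and 3.09 in the second. The EV ratio thus lay on either side of 2 by orientation, whereas the miR-155 ratio and the miR-155/EV ratio did not. Over all kept probes the miR-155/EV ratios of the orientations differed by a median of 1.23-fold, and by 2.07-fold at the 95th percentile. Of the 15529 kept probes, 23 (0.148%), JARID2 included, had a miR-155/EV ratio at least as high as that of JARID2, and 290 (1.87%) had an IP/T ratio at least as high in miR-155 cells.

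Both fractions of JARID2 moved, in opposite directions. The log2 signal of total RNA was 0.49 lower in miR-155 than in EV cells, a ratio of 0.711, with log2 differences of -0.58 in Cy3 and -0.41 in Cy5. Of all kept probes, 1062 (6.84%) had a total signal that was lower by at least as much. The log2 total difference of JARID2 ran from -0.65 to -0.04 under the alternatives of processing that kept its probe. The log2 signal of IP RNA was 1.103 higher, a ratio of 2.15, with differences of 1.22 in Cy3 and 0.99 in Cy5. Of the 6 genes with a kept probe, JARID2 alone had an IP signal at least 2-fold higher in miR-155 cells, which 1.28% of all kept probes had. This call lay near the threshold, with 1.98-fold in Cy5 and from 1.32-fold to 3.04-fold under the alternatives of processing. Under 1 of the 16 alternatives PHC2 probe 1 also passed the threshold, with 2.28-fold. The ratio of JARID2 rests in part on how background is treated: with normexp background correction and quantile normalization it was 0.58 on the log2 scale, in place of 1.59.

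EZH2, the main catalytic subunit of PRC2 in dividing cells, had a lower IP/T ratio in miR-155 than in EV cells. Its probe (A_23_P259641, NM_004456) gave total signals of 9739.7 in Cy3 and 6186 in Cy5 and IP signals of 16948 and 15573 in EV cells. In miR-155 cells the total signals were 10838 and 12019.9 and the IP signals 18898 and 15226. The IP signals of the vectors overlapped, and the total signals of miR-155 cells were above both of those of EV cells. The IP/T ratio was 2.09 in EV cells (1.60 and 2.74 by orientation, total in Cy3 first here and below) and 1.49 in miR-155 cells (1.40 and 1.57). The miR-155/EV ratio was 0.710, with 0.879 and 0.574 by orientation, so it lay below 1 in both. The log2 total signal was 0.56 higher in miR-155 cells, but by 0.15 in Cy3 and 0.96 in Cy5, and the log2 IP signal differed by 0.06.

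EZH1, the alternative catalytic subunit, was enriched in the IP fraction to a like extent with either vector. Its probe (A_23_P428219, NM_001991) was detected in 7 channels, the exception being EV total RNA in Cy5. The total signals of EV cells were 230.2 in Cy3 and 164 in Cy5 and the IP signals 772 and 476. In miR-155 cells they were 257 and 256 in total RNA and 821 and 665 in IP RNA. Every IP signal exceeded every total signal, and the IP signals of the vectors overlapped. The IP/T ratio was 3.12 in EV cells (2.07 and 4.72) and 2.88 in miR-155 cells (2.58 and 3.20). The miR-155/EV ratio of 0.920 lay on both sides of 1 by orientation, 1.25 and 0.678.

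SUZ12, the scaffold of PRC2, had 3 probes, all with the same RefSeq identifier (NM_015355) and all detected in the 8 channels. Probe 1 (A_23_P100883) ranged from 7579.5 to 11024, probe 2 (A_32_P24223) from 478 to 915 and probe 3 (A_24_P873263) from 326 to 514. None had an IP/T ratio past 2 in either direction. The IP/T ratios of probe 1 were 1.08 in EV and 0.998 in miR-155 cells, those of probe 2 were 0.841 and 0.664, and those of probe 3 were 1.05 and 0.795. The miR-155/EV ratios of the probes were 0.926, 0.789 and 0.755. Probes 2 and 3 had ratios below 1 in both orientations, whereas probe 1 had 0.758 in the first and 1.13 in the second. SUZ12 has a transcribed pseudogene, SUZ12P1, and which of its probes could also bind it is not given in the sources used here.

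Of the PRC1 genes, only PHC2 and BMI1 had a kept probe. PHC2 was chosen by its miR-155/EV ratio, which was at least 2 on both of its kept probes. PHC2 probe 1 (A_23_P423864, NM_198040) was detected in all 8 channels. Its total signals in EV cells were 7230.5 in Cy3 and 7463 in Cy5 and its IP signals 8061 and 7640.2. In miR-155 cells the total signals were 4752 and 5293 and the IP signals 12027 and 13876. The labellings of each RNA sample lay within 1.15-fold of each other. In EV cells IP and total signals were close, and in miR-155 cells they had moved apart on both sides of them.

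The IP/T ratio of PHC2 probe 1 was 1.07 in EV cells (1.06 and 1.08) and 2.58 in miR-155 cells (2.92 and 2.27). The miR-155/EV ratio was 2.41, with 2.76 and 2.10 by orientation. There were 80 kept probes (0.515%), this one included, with a ratio as high or higher. The log2 total signal was 0.55 lower in miR-155 cells, with -0.61 in Cy3 and -0.50 in Cy5, and the log2 IP signal 0.72 higher, with 0.58 and 0.86. Of all kept probes, 767 (4.94%) had a total signal that was lower by at least as much. The miR-155/EV ratio of probe 1 was between 2.09 and 2.76 under the 16 alternatives of processing.

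PHC2 probe 2 (A_23_P34510) has the same RefSeq identifier as probe 1 and gave other IP/T ratios. It was detected in 5 channels and not in the Cy5 channels of EV total, EV IP and miR-155 IP RNA. The filtered log2 values that the authors deposited do not include this probe. Its total signals in EV cells were 334 in Cy3 and 253 in Cy5 and its IP signals 89.0 and 145. In miR-155 cells the total signals were 163 and 123 and the IP signals 172 and 166. EV total RNA was the highest of the 4 RNA samples in both labellings. The IP/T ratio was 0.391 in EV cells (0.434 and 0.352) and 1.20 in miR-155 cells (1.02 and 1.40), and the miR-155/EV ratio was 3.06 (2.35 and 3.99).

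The total signal of PHC2 probe 2 was 0.487 times that of EV cells, and 0.38% of kept probes had a ratio of at most 0.5. On the log2 scale the decrease was -1.03 in Cy3 and -1.04 in Cy5, but the EV total channel in Cy5 was not detected. The log2 IP signal was 0.58 higher, with 0.95 in Cy3 and 0.20 in Cy5. Both probes of PHC2 thus had lower total and higher IP signals in miR-155 cells, but they differed in their IP/T ratio in EV cells. The ratio of probe 2 depends on the treatment of background, since it was between 1.03 and 1.51 with the 4 normexp corrections. PHC2 probe 3 (A_24_P265254) was detected in no channel, with signals between 9.82 and 20.3. Where the 3 probes lie on the transcript is not given in the sources used here.

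The other polyhomeotic genes gave no ratio that could be used. PHC1 probe 1 (A_23_P204246, NM_004426) was detected in 4 channels, with signals between 12.2 and 123, and was removed because the labellings of an RNA sample differed by up to 8.97-fold. PHC1 probe 2 (A_23_P323094) was detected in 2 channels, the Cy3 channels of total RNA, with signals between 14.5 and 64.6. In the IP RNA of EV cells both PHC1 probes were not well above background. No fold is given for either probe.

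PHC3 (A_23_P409988, NM_024947) was detected in 6 channels but was removed, since its EV total signals of 123 in Cy3 and 33.2 in Cy5 differed by 3.69-fold. Its total signals in miR-155 cells were 133 and 144, and its IP signals were 127 and 92.0 in EV and 206 and 173 in miR-155 cells. The EV channels in Cy5 were those not detected. The IP signals of miR-155 cells were above those of EV cells, but the spread of the EV total labellings leaves its miR-155/EV ratio without a usable value.

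BMI1, the partner of the PRC1 ligase, had 2 kept probes (NM_005180) that gave different ratios. Probe 1 (A_23_P314115), detected in all 8 channels, had total signals of 1000.3 and 1179 and IP signals of 967 and 1499 in EV cells, and total signals of 832 and 1156 and IP signals of 1222 and 1154 in miR-155 cells, Cy3 first. All 4 RNA samples overlapped. The IP/T ratios were 1.11 and 1.21 and the miR-155/EV ratio 1.09, on both sides of 1 by orientation (0.926 and 1.29).

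BMI1 probe 2 (A_24_P303989) was detected in 7 channels, the exception being EV IP RNA in Cy5. Its total signals in EV cells were 173 in Cy3 and 154 in Cy5 and its IP signals 103 and 119.9. In miR-155 cells the total signals were 134 and 109 and the IP signals 135 and 161. On the normalized scale, the order of the fractions was thus exchanged between the vectors. Total lay above IP in EV cells and IP above total in miR-155 cells. The IP/T ratio was 0.681 in EV (0.694 and 0.668) and 1.22 in miR-155 cells (1.20 and 1.23), and the miR-155/EV ratio 1.79 (1.73 and 1.85). With the normexp corrections this ratio was between 1.12 and 1.41. BMI1 shares its transcripts' sequence with the readthrough gene COMMD3-BMI1, so signals of the pair cannot be told apart. RNF2, the PRC1 ligase, was detected in no channel with either of its probes (A_24_P199500 and A_23_P85543, NM_007212), whose signals reached no more than 61.6 and 33.6. RNF2 was therefore not measurable on these arrays, which does not show that it was absent.

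**Figure D2:**
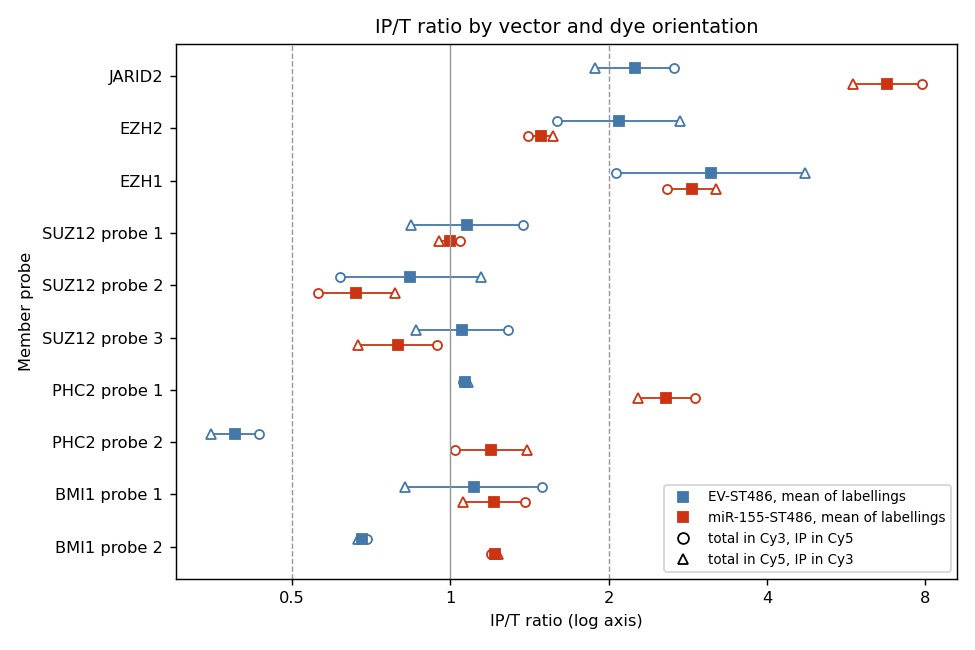
IP/T ratio (log axis) of the 10 kept Polycomb probes in EV-ST486 (blue) and miR-155-ST486 (red) cells. Squares are means of the labellings, open symbols the single dye orientations, and dashed lines mark ratios of 0.5 and 2. JARID2 at 6.78 and PHC2 probe 1 at 2.58 in miR-155 cells stand clear of their EV values of 2.24 and 1.07.

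In EV cells, 3 of the 10 kept probes had IP/T ≥ 2, those of JARID2, EZH2 and EZH1, beside 12.1% of all kept probes, and PHC2 probe 2 had a ratio of at most 0.5, beside 10% of all. In miR-155 cells, 3 probes had a ratio of at least 2, those of JARID2, EZH1 and PHC2 probe 1, beside 12.2% of all, and none had one of at most 0.5, beside 9.83%. The median IP/T ratio of the 6 PRC2 probes was 1.502 in EV and 1.22 in miR-155 cells, that of the 4 PRC1 probes 0.853 and 1.21, and that of all kept probes 0.900 and 0.882. The PRC1 median rests on PHC2 and BMI1 alone, and the PRC2 median includes JARID2. PHC2 and JARID2 were chosen by their miR-155/EV ratios, so a shift of either complex was not tested. The calls in EV cells were not stable to background correction. With each of the 4 normexp corrections no Polycomb probe that was kept reached 2 there. The 3 probes were not kept in every one of them. EZH2 was lost wherever high local backgrounds were replaced, and JARID2 with normexp, loess and Aquantile. In the other normexp settings the ratio of EZH2 was 1.69 and 1.87.

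The miR-155/EV ratio was at least 2 for 3 of the 10 probes, JARID2 and PHC2 probes 1 and 2, beside 1.15% of all kept probes, and each was past 2 in both dye orientations, beside 0.67%. JARID2 and PHC2 probe 1 also had an IP/T ratio ≥ 2 in miR-155 cells, beside 0.438%. These genes were chosen with the ratios known, so the shares are printed for scale. The Polycomb probe just above 2 was PHC2 probe 1 with 2.41, and the one just below was BMI1 probe 2 with 1.79. The 7 kept probes of EZH2, EZH1, SUZ12 and BMI1 ranged from 0.710 to 1.79 with a median of 0.920, beside a median of 0.983 over all kept probes, and none of the 10 probes had a ratio of at most 0.5, beside 0.477%.

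**Figure D3:**
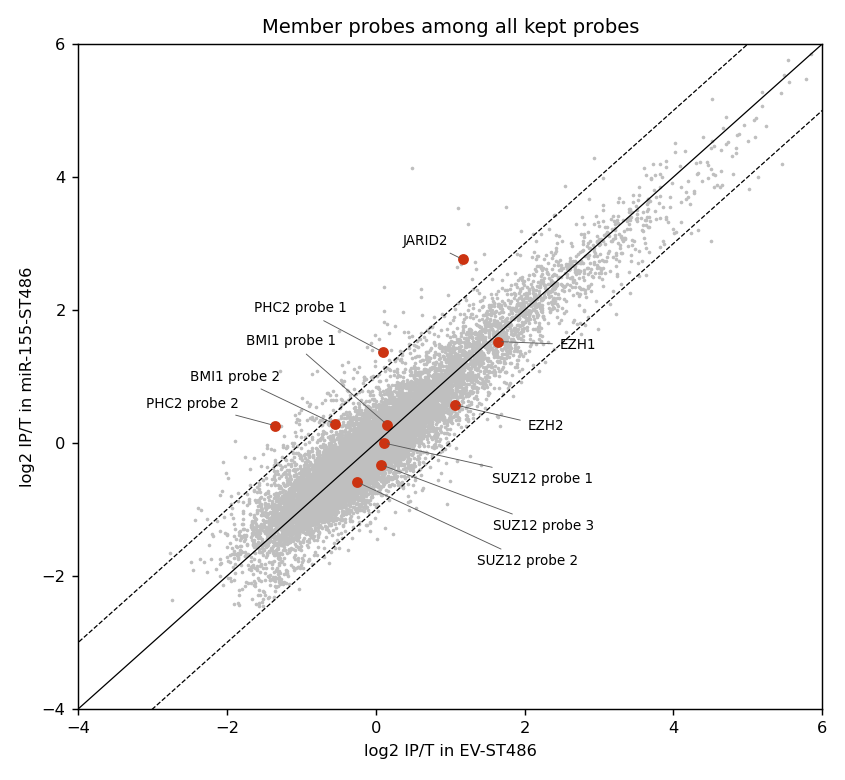
Log2 IP/T ratio in EV (horizontal) and miR-155 cells (vertical) of the 15529 kept probes (grey) with the 10 Polycomb probes in red. The solid line is equality and the dashed lines are 2-fold differences. JARID2 and PHC2 probes 1 and 2 lie above the upper dashed line, and EZH1, EZH2, SUZ12 and BMI1 lie between the lines.

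The JARID2 and PHC2 probes with a miR-155/EV ratio ≥ 2 were also, with BMI1 probe 2, those whose fractions moved apart. On the log2 scale that ratio is the IP difference less the total difference, so the 2 measures are not independent. A total signal that was lower and an IP signal that was higher in miR-155 cells, in both labellings, was seen for 4 Polycomb probes, JARID2, PHC2 probes 1 and 2 and BMI1 probe 2, beside 4.31% of all kept probes. None had a total signal at least 2-fold higher in miR-155 cells (0.676% of all) and none an IP signal at most 0.5 times that of EV cells (1.05%). The IP/T ratio lay below 1 in both orientations of EV cells and above 1 in both of miR-155 cells for PHC2 probe 2 and BMI1 probe 2, beside 1.58% of all, and no Polycomb probe went the other way, beside 1.65%. These measures come from the contrast by which JARID2 and PHC2 were chosen. The median log2 difference in total signal was 0.18 for the 7 probes of EZH2, EZH1, SUZ12 and BMI1 and 0.02 for all kept probes, and in IP signal it was 0.06 and 0.00. The signs of the total and IP differences of JARID2, PHC2 probes 1 and 2 and BMI1 probe 2 held under the 16 alternatives wherever the probe was kept. Their sizes did not hold. For PHC2 probe 2 the log2 total difference ran from -1.08 to -0.04 and the log2 IP difference from 0.004 to 0.95.

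**Figure D4:**
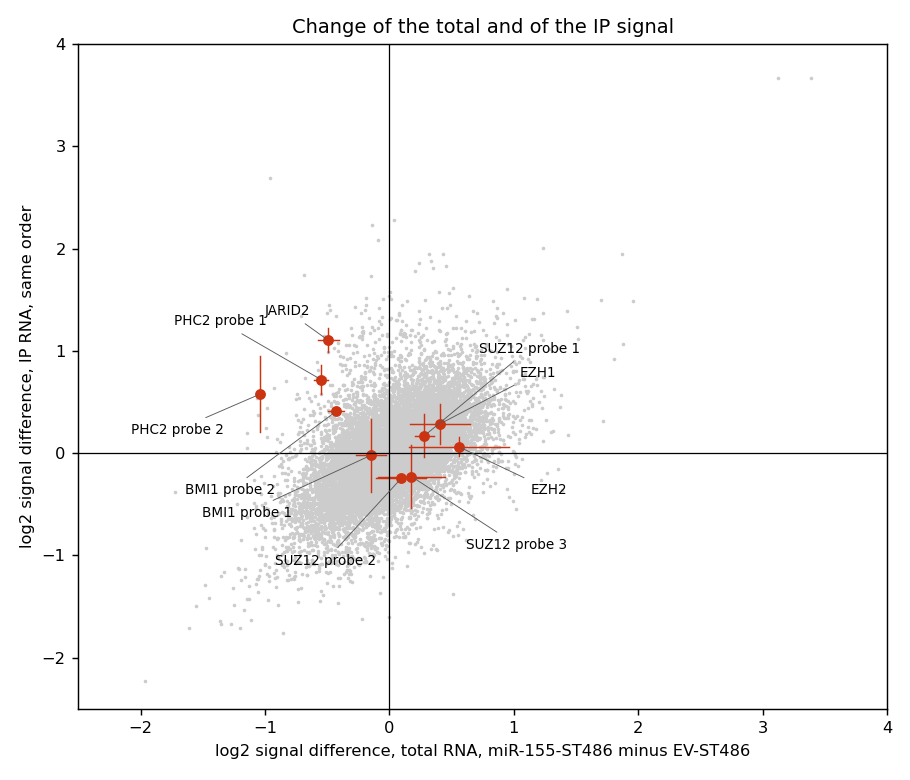
Log2 signal difference between miR-155 and EV cells in total RNA (horizontal) and in IP RNA (vertical) for all kept probes (grey) and the 10 Polycomb probes (red). Crosses span the values of the Cy3 and Cy5 labellings. JARID2, PHC2 probes 1 and 2 and BMI1 probe 2 lie at the upper left, where total signal is lower and IP signal higher.

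The other Polycomb genes gave the wider picture. A list of 44 further genes (PRC2 accessory subunits, PRC1 RING, PCGF, CBX and SCM subunits, variant PRC1 subunits, the deubiquitinase complex, DNA-binding and MBT proteins and H3K27 demethylases) had 62 probes, of which 46 were kept, in 30 genes. None of the 46 had a miR-155/EV ratio ≥ 2, beside 1.15% of all kept probes, or at most 0.5, beside 0.477%. With shares this small, few or none of 46 probes would be past either threshold. Their ratios ran from 0.642 to 1.75 with a median of 0.997, beside 0.983 over all kept probes. In IP/T, 11 of the 46 reached 2 in EV cells, beside 12.1% of all kept probes, and 10 in miR-155 cells, beside 12.2%. Their median IP/T ratios were 1.19 and 1.11, beside 0.900 and 0.882 over all kept probes.

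Among PRC2 accessory subunits, PHF1, a reader of methylated histone H3, had IP/T ratios of 4.76 in EV and 3.75 in miR-155 cells. MTF2, a relative of PHF1 that binds DNA, had 2.05 and 3.19, a miR-155/EV ratio of 1.55. AEBP2, a zinc finger protein that sits with JARID2 in one form of PRC2, had 2.06 and 2.17 on probe 1 and 1.81 and 2.70 on probe 2. For AEBP2 probe 2 the miR-155/EV ratio of 1.49 spanned 2.42 and 0.917 by orientation. In the mean, PHF1, MTF2 and AEBP2 probe 1 were thus past 2 with either vector, and AEBP2 probe 2 in miR-155 cells. By orientation, some of these ratios lay on either side of 2. MTF2 had 2.38 and 1.77 in EV cells. AEBP2 probe 1 had 2.87 and 1.48 in EV and 2.56 and 1.83 in miR-155 cells. The others were past 2 in both orientations.

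Among PRC1 subunits, CBX7, which reads the mark of PRC2, had IP/T ratios of 8.02 in EV and 6.68 in miR-155 cells on probe 1 and 9.32 and 7.24 on probe 2. PCGF3, a relative of BMI1, had 5.50 and 5.64 on probe 1, and 1.83 and 1.77 on probe 2. RING1, the other PRC1 ligase, lay on the opposite side, with 0.459 and 0.462. These lay on either side of 0.5 by orientation, with 0.321 and 0.656 in EV and 0.379 and 0.564 in miR-155 cells. E2F6, the sequence-specific factor of a variant PRC1, had 2.16 and 1.96 on probe 2 and 2.24 and 2.05 on probe 3. Its other kept probes stayed below 2, with 1.93 and 1.73 on probe 1 and 0.939 and 1.20 on probe 4. The ratio of E2F6 probe 3 in miR-155 cells was 1.91 and 2.19 by orientation. AUTS2, another variant subunit, had 2.54 and 1.63. L3MBTL2, an MBT protein of variant PRC1, had 0.436 and 0.576 on probe 2, which was detected in 5 channels. Its probe 1, detected in all 8, had 0.739 and 0.730. By orientation, the EV ratio of L3MBTL2 probe 2 was 0.330 and 0.575.

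BAP1, the enzyme that removes the PRC1 mark, was low in the IP fraction, with IP/T ratios of 0.379 in EV and 0.519 in miR-155 cells on probe 1 and 0.300 and 0.524 on probe 2. The latter had the highest miR-155/EV ratio of the 46 probes, 1.75. By orientation, the EV ratio of BAP1 was 0.251 and 0.572 on probe 1 and 0.248 and 0.364 on probe 2. MBD6, a partner of BAP1, had 5.90 and 6.29, and KDM6A, which removes the mark of PRC2, 3.65 and 4.68. Of the Jumonji and ARID relatives of JARID2, 1 of 3 probes was kept, and its miR-155/EV ratio was 0.933. Of genes that EZH2 is known to silence in germinal centre B cells, 5 of 11 probes were kept. CDKN1B, an inhibitor of the cell cycle, had IP/T ratios of 16.3 and 22.8 and CDKN1A, its relative, 3.78 and 3.88. No kept probe of this list had a miR-155/EV ratio past 2, beside 1.15% of all kept probes.

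The genes with IP/T ratios most like those of JARID2 were found by the Euclidean distance over 4 log2 values, the vectors by the dye orientations, among 11043 kept probes with a symbol. In order they were ERI2, USPL1, ZNF320, TAB2 and FBXO11, at distances from 0.34 to 0.72. Their IP/T ratios ran from 2.21 to 2.75 in EV and from 4.93 to 7.16 in miR-155 cells. For PHC2 probe 1 they were DHX33, CLUAP1, TPD52, GALT and PCDH9, at 0.20 to 0.42, with IP/T ratios from 1.08 to 1.25 and from 2.38 to 2.65. The ERI2 and DHX33 probes were detected in 6 and 5 channels and the others in 8. The total signal changes were not alike among them, with log2 differences from -0.73 for ZNF320 to -0.01 for USPL1 in the first group, and from -0.61 for PCDH9 to 0.12 for TPD52 in the second.

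As a check of the cells, the B cell markers MS4A1, CD79A, CD79B and MME were detected in all 8 channels and CD22 in 7, while the PAX5 probe was detected in none and BCL6 had no matched probe. All 5 probes of T cell markers were detected in no channel, as were LYZ, CSF1R, MPO and EPCAM. CD14 was detected in 5 channels but not kept, and KRT8 and KRT18 had 1 probe each that was detected in 8 and 4 channels. The number of probes detected per channel ran from 14094 to 22161 of 41000.

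**Figure D5:**
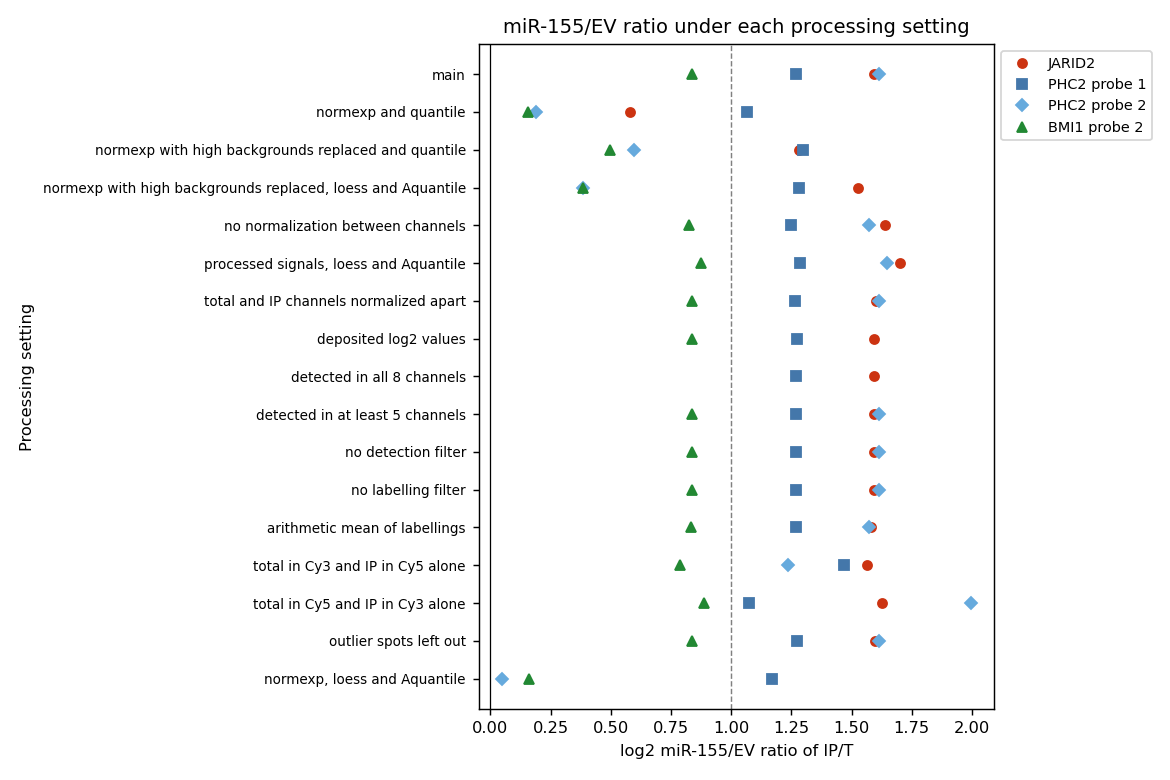
Log2 miR-155/EV ratio (horizontal) of JARID2, PHC2 probes 1 and 2 and BMI1 probe 2 under the main processing and 16 alternatives (vertical). The dashed line is a ratio of 2, and a missing symbol is a probe not kept under that setting. PHC2 probe 1 stays between 2.09 and 2.76, whereas PHC2 probe 2 falls below 2 with each normexp correction.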

How the data were processed

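Intensities of the 8 channels, which the authors deposited as extracted with Agilent Feature Extraction 10.5.1.1, are background-subtracted and dye-normalized within arrays per the file headers. The deposited log2 values were made by the authors with quantile normalization and filters. They served as an alternative. Of their 14453 probes, 14446 were kept here, and 99.9% of values lay within 0.05 of those computed here, so their scale and direction are known. Each array was deposited under both channels, and the channel of the sample's dye was used.

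Control spots were left out. Spots of a probe were averaged, signals below 1 set to 1, and log2 signals quantile-normalized over the 8 channels. Filters on detection and labellings left 15529 of 41000 probes, with 3940 removed by the second. The log2 labellings were averaged. The threshold of every ratio was 2. Symbols came from RefSeq identifiers (GRCh38.p14), which matched 23958 probes. No coordinates of probes were used. Normexp (offset 50) was run on median spot signals, because mean ones are not in the channel files, and again with local backgrounds above 500 replaced.

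The Polycomb genes and the lists were chosen with earlier results of these data known. Named are all probes of the 10 genes, genes of the other lists with a kept probe past an IP/T or miR-155/EV ratio of 2 in either direction, and the 5 kept probes nearest to JARID2 and PHC2. The procedure was tested on simulated data. The number of arrays limits precision. IgG precipitates were not analysed here. Normexp, loess and Aquantile were run in limma 3.58.1 under R 4.3.3, and all else in Python 3.11.15 (pandas 2.3.3, numpy 2.4.6, matplotlib 3.10.9).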

Additional observations from a re-analysis of the deposited data

Results flagged for a closer look

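In both dye orientations, PHC2 probe 2 had an IP/T ratio below 1 in EV and above 1 in miR-155 cells, and the difference on the log2 scale was 1.62. BMI1 probe 2 showed the same change of side, with a log2 difference of 0.84. The difference was not tested, since each condition was 1 RNA sample. This change of side was seen for 1.58% of kept probes and the opposite one for 1.65%. Where a ratio of 1 lies is set by the scaling of the channels. The median IP/T ratio of all kept probes was 0.900 in EV and 0.882 in miR-155 cells. Both probes lie low, with some channels not detected, and the second kept probe of each gene did not change side in both orientations.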

How the results depend on the processing

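PHC2 probe 1 kept its direction and a miR-155/EV ratio ≥ 2 under all 16 alternatives, with log2 values from 1.066 to 1.47. JARID2 kept its direction under the 15 alternatives that retained its probe and was not kept with normexp, loess and Aquantile. Its log2 miR-155/EV ratio was 0.58 with normexp and quantile normalization, 1.28 with the same and high local backgrounds replaced, 1.53 with these replaced before loess and Aquantile, and 1.70 with processed signals, loess and Aquantile. The number of Polycomb probes with IP/T ≥ 2 in EV cells went from 3 to 0 with each of the 4 normexp settings and to 1 at a threshold of 3. The fall to 0 is in part a loss of probes, since EZH2 was not kept where high local backgrounds were replaced. In miR-155 cells it went from 3 to 1 with normexp and quantile normalization, with normexp, loess and Aquantile, and at a threshold of 3. The number with a miR-155/EV ratio ≥ 2 went from 3 to 1 with the same normexp settings. Of the other Polycomb probes, the number with IP/T ≥ 2 in miR-155 cells went from 10 to 5 with normexp and quantile normalization, to 2 with normexp, loess and Aquantile, and to 18 at a threshold of 1.5. The number with a miR-155/EV ratio ≥ 2 went from 0 to 1 with total in Cy3 alone and to 2 at a threshold of 1.5. The share of all kept probes with IP/T ≥ 2 in EV cells was 2.21% with normexp and quantile normalization, beside 12.1%. Without normalization the median log2 difference of all probes was 0.44 in both fractions, so signal differences there are relative to it. No Polycomb value at least 2-fold from 1 under the main processing changed sign on the log2 scale under these alternatives. Some smaller ones did, among them the miR-155/EV ratios of EZH1 and SUZ12 probe 1. So did the IP/T ratios of PHC2 probe 1 and BMI1 probe 1 in EV cells. No paired analysis was possible because each condition was 1 RNA sample.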
